A study of Mus musculus with 9 samples.

Results

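The platelet-derived growth factor (PDGF) system was followed through 7 genes: the receptors Pdgfra and Pdgfrb, the receptor-like gene Pdgfrl, and the ligand genes Pdgfa, Pdgfb, Pdgfc and Pdgfd. They are 7 of the 36410 genes in the count table. The family was chosen by symbol, and it was singled out because Pdgfra is much higher in HD-homo cells. For the members, comparisons with HD-homo are therefore a description, with no p-value and nothing concluded from them, and tests are read only between HD-het and control. RNA sequencing covered 9 libraries, 3 from each of 3 immortalized striatal cell lines derived from embryos of C57/BL6 background. The control line, STHdhQ7/Q7, carries 7 glutamine repeats on both huntingtin alleles. The HD-homo line, STHdhQ111/Q111, has 111 repeats on both alleles. The HD-het line, STHdhQ7/Q111, has 1 allele of each kind. Since a single line stands for each genotype, genotype and line cannot be told apart.

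PDGF ligands are secreted as disulfide-linked dimers. PDGF-A and PDGF-B are processed inside the cell, whereas PDGF-C and PDGF-D are released with a CUB domain that proteases remove outside it. PDGF-A and PDGF-C chains act mainly through the alpha receptor, PDGF-B binds both receptors and PDGF-D acts mainly through the beta receptor. Bound receptors dimerize and phosphorylate tyrosines that recruit PI3-kinase, phospholipase C-gamma, SHP2 and Src kinases. In the brain the alpha receptor is known from oligodendrocyte precursors and perivascular fibroblasts, and the beta receptor from pericytes.

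The libraries held 29507665 to 41197931 counts. Levels are given as normalized CPM, counts divided by the library total and scaled by edgeR's TMM factors to the usual CPM unit, and 3 counts, the limit below which a gene is treated as not detected, equal 0.0710 to 0.101 CPM. A gene was called when its adjusted p from edgeR's quasi-likelihood fit, over 13508 tested genes, was under 0.05. All 7 members passed the filter on low counts. Pdgfd passed although the HD-homo libraries held 0 or 1 count of it. Nothing in the labels says that the 3 libraries of a line came from separate cultures, so p-values measure the spread between libraries, which may be technical. That spread was uneven: pairs of libraries differed by 2.23 to 11.8 times the variance expected from counting in control, by 6.44 to 21.4 times in HD-het and by 22.7 to 40.3 times in HD-homo.

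Markers of the brain cell types known for PDGF receptors were present to different degrees. Of 10 oligodendrocyte precursor markers, 2 could be tested, and Gpr17 had no counts in any library, while Olig1, Olig2, Nkx2-2 and Neu4 had at most 2. The summed marker level of that list was 66.8 to 83.9 CPM in control, 159.0 to 198.1 CPM in HD-het and 145.0 to 187.4 CPM in HD-homo, almost all of it from Cspg4, and 6 to 8 of the 10 genes were at or under the floor. Of 12 mural cell markers, Kcnj8, Vtn and Higd1b had at most 1 count, and the sum was 2351 to 2749 CPM in control, 6900 to 7548 CPM in HD-het and 107.2 to 191.8 CPM in HD-homo, led by the contractile genes Acta2 and Tagln, with 4 or 5 of the 12 genes at or under the floor. Of the 7 mural markers tested, 6 rose and 0 fell in HD-het (85.7% called, beside 65.1% of all tested genes). In HD-homo Acta2, Tagln and Mcam fell and Notch3, Des and Anpep rose (85.7%, beside 58.6%). Fibroblast markers summed to 2696 to 3620 CPM in control, 7722 to 8911 CPM in HD-het and 6398 to 6890 CPM in HD-homo. Of the 9 fibroblast markers tested, 5 rose and 3 fell in HD-het (88.9% called, beside 65.1% of all tested genes). In HD-homo 7 rose and 0 fell (77.8%, beside 58.6%). Col1a1, a type I collagen chain, rose in both lines (log2 fold changes 1.53 and 0.78), while Col1a2, the other chain, fell in HD-het and rose in HD-homo (-4.54 and 4.35). The 12 markers of striatal projection neurons, of which 7 were tested, summed to 143.6 to 150.8 CPM in control, 206.4 to 210.9 CPM in HD-het and 184.9 to 209.1 CPM in HD-homo. Among them the dopamine receptor Drd1 had no counts, Drd2 had at most 1, and Foxp1, which other tissues also express, stood at 93.8 ± 5.14, 114.0 ± 1.55 and 167.8 ± 10.3 CPM. Of the 7 tested, 4 rose and 2 fell in HD-het (85.7% called, beside 65.1% of all tested genes), with a median log2 fold change of 0.28. In HD-homo 2 rose and 1 fell (42.9%, beside 58.6%), and the median was -0.41, although the sum and Foxp1 were above control. These marker levels differed between the lines, and their part in the results on the PDGF genes was not tested.

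Pdgfra, the alpha receptor, was far higher in HD-homo than in the other lines. It was measured at 5.72, 5.71 and 4.19 CPM in control 1 to 3, at 3.89, 3.96 and 5.27 CPM in HD-het 1 to 3 and at 310.7, 308.3 and 300.7 CPM in HD-homo 1 to 3. These levels rest on 124 to 192 counts per control library, 130 to 176 per HD-het library and 10082 to 13022 per HD-homo library. The HD-homo libraries lay close together and far above the other 6. Their mean, 306.6 ± 5.22 CPM (SD, n = 3), was 58.9-fold above control (log2 fold change 5.87, SE 0.13) and 70.1-fold above HD-het (6.13, SE 0.13). In bulk RNA, a change in the number of cells that express a gene and a change in its RNA per cell cannot be told apart.

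Pdgfra in HD-het was not called different from control. The means were 4.38 ± 0.777 CPM in HD-het and 5.21 ± 0.880 CPM in control (SD, n = 3), the libraries overlapped, and edgeR gave a log2 fold change of -0.26 (SE 0.14, adjusted p = 0.124). Replicate 3 of both lines decides this result. Without control replicate 3 the log2 fold change was -0.39 (edgeR adjusted p = 0.0217), without HD-het replicate 3 it was -0.41 (adjusted p = 0.0178), and without replicate 3 of all 3 lines, an alternative chosen after seeing the data, it was -0.54 (adjusted p = 0.000601).

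Pdgfrb, the beta receptor, was highest in HD-het. It stood at 99.0, 94.9 and 84.3 CPM in control 1 to 3, at 379.8, 355.1 and 351.3 CPM in HD-het 1 to 3 and at 140.6, 125.7 and 170.7 CPM in HD-homo 1 to 3. No library of one line overlapped another line. Pdgfrb rose 3.91-fold in HD-het against control, with a log2 fold change of 1.97 (SE 0.10, edgeR adjusted p = 5.67e-08), and the call held under all 17 alternatives. In HD-homo the mean of 145.7 ± 22.9 CPM was 1.57-fold above control and 2.49-fold below HD-het. The 2 receptors thus had different orders over the lines.

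Pdgfrl encodes a secreted protein that resembles the extracellular part of the receptors and has no kinase domain. Its levels were 41.5, 38.9 and 37.3 CPM in control 1 to 3, 62.8, 57.8 and 45.4 CPM in HD-het 1 to 3 and 7.11, 7.62 and 6.80 CPM in HD-homo 1 to 3. It rose in HD-het by 1.41-fold (log2 fold change 0.50, SE 0.11, edgeR adjusted p = 0.00167), with HD-het 3 nearest to the control libraries. HD-homo, at 7.18 ± 0.416 CPM, was 5.47-fold below control and 7.71-fold below HD-het. Pdgfrl in HD-homo therefore lay on the other side of control from HD-het.

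**Figure D1:**
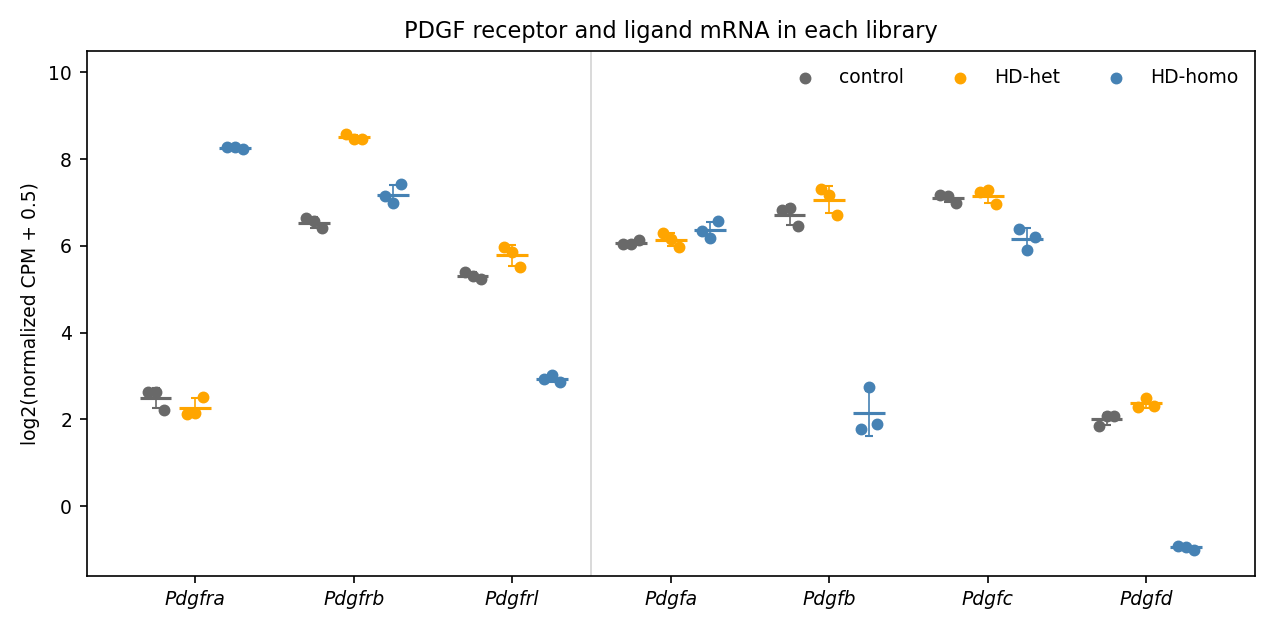
Normalized expression of the 7 PDGF genes in each library, as log2(normalized CPM + 0.5) on the vertical axis, with points for the 3 libraries of each line and bars for the mean ± SD. The HD-homo points of Pdgfra (300.7 to 310.7 CPM) lie far above those of the other lines, and those of Pdgfrl, Pdgfb and Pdgfd lie far below.

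Of the 7 members, 3 were called higher and 0 lower in HD-het against control (Pdgfrb, Pdgfrl and Pdgfd), beside 65.1% of all tested genes called in either direction, 33.8% higher and 31.4% lower. The libraries of the 2 lines did not overlap for 3 members, beside 74.0% of all tested genes. The count of members is thus no higher than the background. The median log2 fold change of the members was 0.36, and that of all tested genes was 0.03. The same rule applied to HD-homo is no test of the family, because HD-homo values chose it, and its counts are given for completeness. In HD-homo against control all 7 were past the threshold, 3 higher and 4 lower, beside 58.6% of all genes called, 29.6% higher and 28.9% lower, and all 7 had no overlap, beside 65.3%. In HD-homo against HD-het 6 were past it, 1 higher and 5 lower, beside 71.6% called, 36.0% higher and 35.6% lower, and 6 had no overlap, beside 72.8%. Nothing is read from those counts.

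The ligand genes fell into different patterns. Pdgfa, which encodes the A chain, differed least between the lines: its levels were 65.2, 65.7 and 69.4 CPM in control 1 to 3, 78.1, 70.7 and 62.9 CPM in HD-het 1 to 3 and 81.4, 72.1 and 94.3 CPM in HD-homo 1 to 3. HD-het and control overlapped (log2 fold change 0.08, SE 0.10, edgeR adjusted p = 0.499). The HD-homo libraries all lay above the control libraries, with a mean of 82.6 ± 11.1 CPM against 66.8 ± 2.28 CPM (1.24-fold), but overlapped HD-het.

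Pdgfb, which encodes the B chain, was almost lost in HD-homo. It stood at 112.9, 116.9 and 87.5 CPM in control 1 to 3, at 158.3, 143.9 and 105.0 CPM in HD-het 1 to 3 and at 2.94, 6.18 and 3.25 CPM in HD-homo 1 to 3. HD-homo 2 was the highest of its line, with 261 counts against 96 and 109, and still lay far below every control and HD-het library. The HD-homo mean, 4.12 ± 1.79 CPM (SD, n = 3), was 25.6-fold below control and 32.9-fold below HD-het. Without HD-homo replicate 2 the log2 fold change against control moved from -4.65 to -5.09. HD-het and control overlapped, and Pdgfb was not called between them (log2 fold change 0.36, SE 0.20, edgeR adjusted p = 0.14). It was called without HD-het replicate 3 (log2 fold change 0.51, adjusted p = 0.0439), without HD-homo replicate 2 (adjusted p = 0.0443) and when only the HD-het and control libraries entered the fit (adjusted p = 0.049). The call also appeared with the replicate number as a block in the fit (edgeR adjusted p = 0.0459).

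Pdgfc, which encodes the C chain, was lowest in HD-homo. Its levels were 143.7, 140.6 and 127.5 CPM in control 1 to 3, 150.5, 155.1 and 124.3 CPM in HD-het 1 to 3 and 83.4, 59.5 and 73.2 CPM in HD-homo 1 to 3. HD-het and control overlapped (log2 fold change 0.06, SE 0.12, edgeR adjusted p = 0.657). Every HD-homo library was below all the others, and the mean of 72.0 ± 12.02 CPM was 1.91-fold below control and 1.99-fold below HD-het.

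Pdgfd, which encodes the D chain, was low in 2 lines and not detected in the third. It had 99, 126 and 111 counts in control 1 to 3 (3.08, 3.75 and 3.75 CPM), 156, 170 and 150 counts in HD-het 1 to 3 (4.40, 5.18 and 4.49 CPM) and 1, 1 and 0 counts in HD-homo 1 to 3. Against the floor of 3 counts per library, HD-homo was at least 41.9-fold lower than control and at least 55.7-fold lower than HD-het. Pdgfd rose in HD-het by 1.33-fold (log2 fold change 0.41, SE 0.15, edgeR adjusted p = 0.0338). This call is fragile: DESeq2 gave an adjusted p of 0.0608, and leaving out any control library or HD-het replicate 1 or 2 ended it, with edgeR adjusted p of 0.142, 0.0585 and 0.0516 without control replicates 1, 2 and 3 and 0.054 and 0.129 without HD-het replicates 1 and 2.

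**Figure D2:**
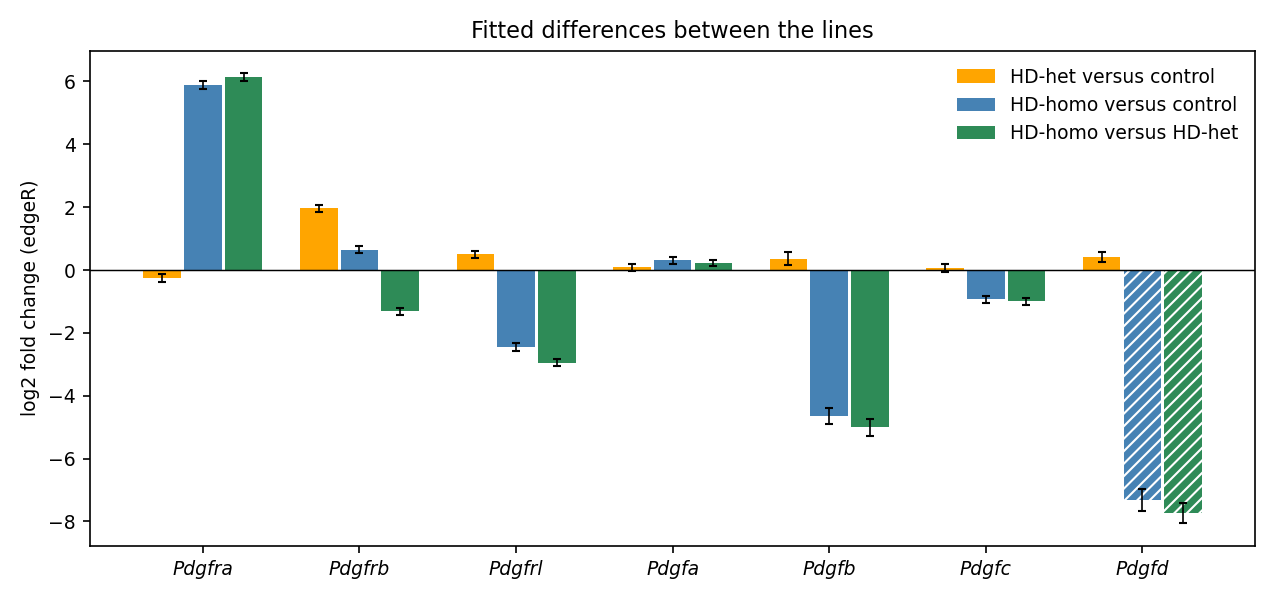
Fitted log2 fold change (vertical axis, edgeR) of each PDGF gene in the 3 comparisons between lines, with bars for the estimate and whiskers for the standard error. Pdgfra is 5.87 above control in HD-homo and -0.26 in HD-het, and the hatched Pdgfd bars are fitted against libraries of 0 or 1 count, so their height is not a bound.

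The third replicates and HD-homo 2 stood apart within their lines for several members at once. HD-het 3 was the lowest HD-het library for Pdgfrb, Pdgfrl, Pdgfa, Pdgfb and Pdgfc and the highest for Pdgfra. Control 3 was the lowest control library for Pdgfra, Pdgfrb, Pdgfrl, Pdgfb and Pdgfc. HD-homo 2 was the lowest HD-homo library for Pdgfrb, Pdgfa and Pdgfc and the highest for Pdgfrl and Pdgfb.

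To compare genes with each other, normalized CPM was divided by transcript length in kb. The length was that of the longest coding transcript of each gene in the GENCODE annotation of GRCm38. On this scale Pdgfra was the lowest member in control (0.762 ± 0.129 CPM per kb) and HD-het (0.640 ± 0.114), and the highest in HD-homo (44.9 ± 0.764), where its libraries overlapped those of Pdgfa, the next in order (40.1 ± 5.41). In control, Pdgfc, Pdgfb and Pdgfa led and neighbours in that order overlapped, followed by Pdgfrl, Pdgfrb, Pdgfd and Pdgfra without overlap. In HD-het, Pdgfrb led at 66.8 ± 2.85 CPM per kb, clear of all others, while Pdgfb, Pdgfc, Pdgfrl and Pdgfa overlapped from one to the next. In HD-homo the order was Pdgfra, Pdgfa, Pdgfrb, Pdgfc, Pdgfrl, Pdgfb and Pdgfd, with overlap also between Pdgfrb and Pdgfc.

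The balance between the receptors therefore differed between the lines. Pdgfra made up 4.39, 4.56 and 3.80% of both receptors per kb in control 1 to 3, 0.807, 0.878 and 1.18% in HD-het 1 to 3 and 63.7, 66.1 and 58.3% in HD-homo 1 to 3. The ranges did not overlap. From control to HD-het the log2 ratio of Pdgfra to Pdgfrb differed by -2.22, and this difference ran from -2.38 to -2.11 when each library was left out. An exact permutation test, two-sided, gave p = 0.1, and 3 against 3 libraries can give no smaller value. HD-homo lay 5.25 above control and 7.47 above HD-het on the same scale. The sum of both receptors was 17.9 ± 1.53 CPM per kb in control, 67.4 ± 2.78 in HD-het and 71.7 ± 3.60 in HD-homo, so the HD-het and HD-homo libraries reached similar sums with opposite receptors in the lead.

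The ligand genes summed to 108.4 ± 6.64 CPM per kb in control, 122.6 ± 17.4 in HD-het and 62.0 ± 7.11 in HD-homo (SD, n = 3). HD-het and control overlapped (difference 14.1, two-sided exact permutation p = 0.3, smallest possible 0.1). In control, Pdgfa, Pdgfb and Pdgfc held similar shares of this sum, 30.0 ± 2.95, 33.0 ± 3.09 and 35.9 ± 0.539%. In HD-homo Pdgfa held 64.7 ± 3.06% and Pdgfc 33.0 ± 3.41%, while Pdgfb held 2.36 ± 1.32%. Pdgfa thus had the largest share in HD-homo with a level only 1.24-fold above control, and Pdgfc kept a share of 30.7 to 36.9% while its level was lower.

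**Figure D3:**
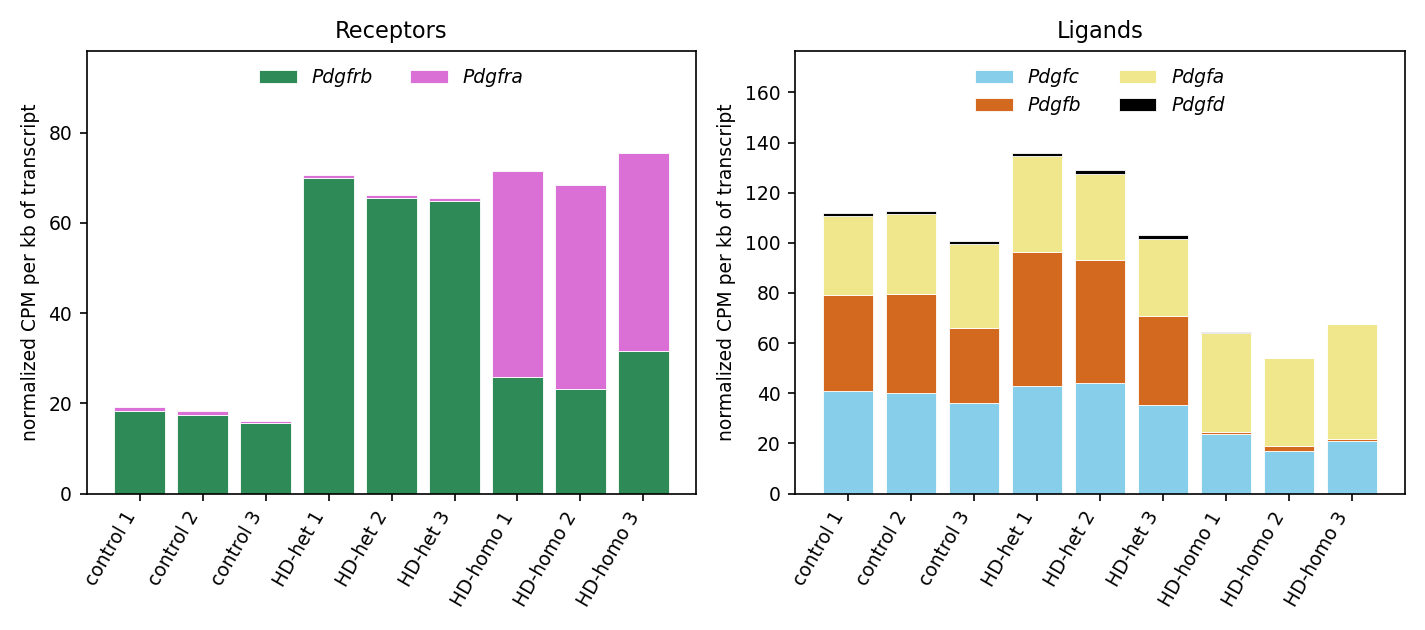
Stacked levels of the receptor genes (left) and the ligand genes (right) in each library, in normalized CPM per kb of transcript. Pdgfrb makes up nearly all receptor mRNA in control and HD-het, Pdgfra makes up 58.3 to 66.1% of it in HD-homo, and the ligand bars of HD-homo (54.0 to 67.7) hold mostly Pdgfa and Pdgfc.

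The position of the members was read from the annotation of GRCm38, which the submitters' processing notes name. Pdgfra lies on chromosome 5 from 75152292 to 75198215 on the plus strand and Pdgfa on the same chromosome from 138976014 to 138997370 on the minus strand. Pdgfrb lies on chromosome 18 (61045150 to 61085061, plus), Pdgfrl on chromosome 8 (40926212 to 40990785, plus) and Pdgfb on chromosome 15 (79995874 to 80014977, minus). Pdgfc lies on chromosome 3 (81036416 to 81214040, plus) and Pdgfd on chromosome 9 (6168584 to 6378850, plus). Counts cover whole genes, so isoforms are not resolved. Of the 50-base words of the longest coding transcript of Pdgfra, 0.177% occur in other genes, and none of those of the other members do. Mir7025, Mir7213, Gm41361 and Ddi1, which overlap Pdgfra, Pdgfb, Pdgfb and Pdgfd, had no counts in any library. The annotation also places Gm42802 and Gm42803 over Pdgfra, 6330403L08Rik over Pdgfa and Gm16000 over Pdgfc, all on the opposite strand. These are not listed under those symbols among the counted genes, so their counts could not be checked.

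Around Pdgfra, the 5 nearest protein-coding genes on each side were examined. On the side before it, all 4 tested genes rose in HD-homo against control: Chic2 by 0.67 (SE 0.06, edgeR adjusted p = 3.13e-06), Lnx1 by 3.10 (SE 0.38, adjusted p = 3.3e-05), Fip1l1 by 0.74 (SE 0.06, adjusted p = 9.58e-07) and Scfd2 by 1.02 (SE 0.11, adjusted p = 1.6e-05), all as log2 fold changes. Lnx1, an E3 ubiquitin ligase, was low throughout, at 0.156 ± 0.0885 CPM in control and 1.38 ± 0.266 CPM in HD-homo. On the side after it, Srd5a3 rose by 0.66 (SE 0.08, edgeR adjusted p = 4.63e-05), Kdr, Tmem165 and Clock were not called, and Kit, a receptor of the same structural class, had at most 2 counts in any library. Gsx2, a striatal progenitor factor next to Pdgfra, was near 0. In HD-het against control, Chic2, Kdr, Srd5a3 and Tmem165 rose by 0.22, 1.04, 0.89 and 0.25 on the log2 scale (edgeR adjusted p = 0.00792, 0.0101, 3.79e-06 and 0.00129), and Scfd2, Fip1l1, Lnx1 and Clock were not called. The neighbours differed less than Pdgfra (58.9-fold). Pdgfra was singled out for its rise in HD-homo, so its place above them followed from that choice and is no test. Over the 817 tested genes matched to chromosome 5, the median log2 fold change of HD-homo against control was 0.11, with 37.2% called higher, beside -0.00 and 29.3% over the 12226 genes matched to other chromosomes.

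**Figure D4:**
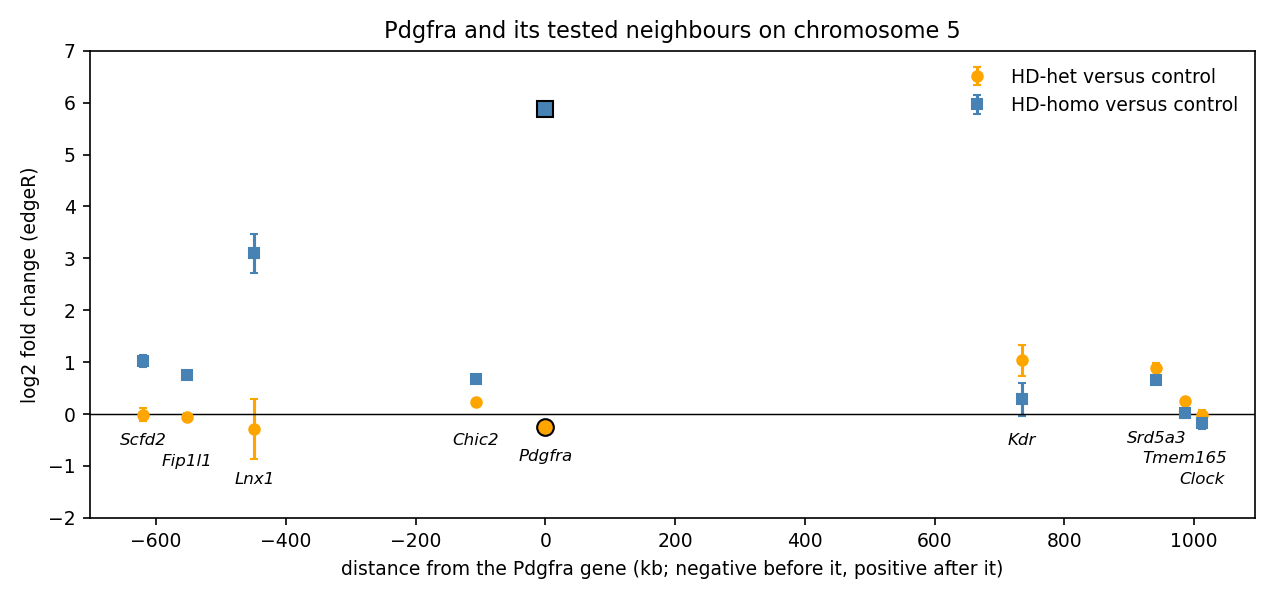
Log2 fold change against control (vertical axis, edgeR, whiskers for the standard error) of Pdgfra, outlined at 0, and of its 8 tested neighbours by distance in kb. Pdgfra, singled out for its rise in HD-homo, stands at 5.87 there, and the highest neighbour, Lnx1, stands at 3.10.

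The genes whose pattern over the 9 libraries was closest to each member were found by the distance between log2(normalized CPM + 0.5) profiles, each centred on its own mean. For Pdgfra these were Bnc1, Nr1h5, Xlr, Emb, Eps8l2, Hic1, Itih2 and Sbsn, at distances from 0.742 to 1.12. Bnc1, a zinc-finger factor of epithelial cells, went from 0.287 ± 0.121 CPM in control to 0.0403 ± 0.0349 in HD-het and 39.7 ± 4.00 in HD-homo. Emb, the cell adhesion glycoprotein embigin, went from 1.22 ± 0.255 to 0.597 ± 0.284 and 91.1 ± 7.50 CPM. Atf5, Apol10b and Ppm1m were closest to Pdgfrb, and Creld1, Camk2n1 and Ccnd2, the last a D-type cyclin, to Pdgfrl. Pskh1, Cdk9 and Nupl2 were closest to Pdgfa, and Dtna, Otud7a and Inhbb to Pdgfb. Fut8, Ercc4 and Fgfr1 were closest to Pdgfc, and Dusp18, Otx1 and Fam217b to Pdgfd. The added 0.5 compresses the profiles of genes near 0, so a small distance does not mean an equal fold change. Dusp18 was still at 5.13 ± 0.369 CPM in HD-homo, where Pdgfd was not detected. Xlr, listed for Pdgfra, had a control mean under the limit of 3 counts (0.0207 ± 0.0359 CPM) and stood at 24.1 ± 2.30 CPM in HD-homo. Fgfr1, an FGF receptor, went from 402.8 ± 10.8 CPM in control to 452.4 ± 12.02 in HD-het and 217.9 ± 16.9 in HD-homo.

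Genes that process, bind or present PDGF were counted from a list of 22, of which 18 were tested. In HD-het against control 11 rose and 4 fell, 83.3% of those tested beside 65.1% of all genes, and in HD-homo against control 5 rose and 6 fell, 61.1% beside 58.6%. The list's median log2 fold change was 0.30 in HD-het and -0.02 in HD-homo, beside 0.03 and 0.01 over all genes. Furin, a proprotein convertase that cleaves PDGF-A and PDGF-B, was 205.5 ± 7.12 CPM in control and fell in HD-homo to 117.1 ± 9.25 CPM (log2 fold change -0.81, edgeR adjusted p = 2.59e-06). Plat, the tissue plasminogen activator that cleaves PDGF-C, fell in HD-het from 129.1 ± 1.22 to 91.5 ± 12.5 CPM (log2 fold change -0.50, adjusted p = 0.00135) and was 121.6 ± 14.5 CPM in HD-homo. Plau, the urokinase that can cleave PDGF-D, rose slightly in HD-het (log2 fold change 0.19, edgeR adjusted p = 0.0422), a call lost without control replicate 2 or 3 (adjusted p = 0.0682 and 0.174), HD-het replicate 1 or 2 (0.151 and 0.1) or HD-homo replicate 1 (0.0508), with library totals only (0.0598) and with no filter (0.0554). Serpine2, a secreted inhibitor of these serine proteases, rose 48.7-fold in HD-het, from 2.12 ± 0.187 to 103.1 ± 3.49 CPM (log2 fold change 5.60, SE 0.21, adjusted p = 4.14e-09), and 2.59-fold in HD-homo (1.37, adjusted p = 0.000291).

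Among the binding partners, Cspg4, the NG2 proteoglycan that binds PDGF-A, rose in HD-het (log2 fold change 1.24, edgeR adjusted p = 5.52e-06) and HD-homo (1.05, adjusted p = 2.24e-05). Sparc, a matrix protein that binds PDGF-B, rose from 1503 ± 113 to 2831 ± 140 CPM in HD-het and fell to 1074 ± 70.0 CPM in HD-homo. Thbs1, a matrix glycoprotein, rose 2.94-fold in HD-het and fell in HD-homo (log2 fold changes 1.56 and -1.04, edgeR adjusted p = 1.65e-06 and 3.65e-05). Itgb3, an integrin chain that cooperates with the beta receptor, rose in HD-het from 40.9 ± 7.25 to 148.8 ± 27.2 CPM. Of the neuropilins, Nrp2 fell in both lines (log2 fold changes -0.60 and -1.99), and Nrp1 was not called in either, although it was called in HD-homo without HD-homo replicate 3 (0.31, edgeR adjusted p = 0.00854) and in HD-het when only the HD-het and control libraries were fitted (-0.16, adjusted p = 0.0249).

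Receptor-proximal signalling was represented by 42 genes, all tested, of which 14 rose and 14 fell in HD-het (66.7% called, beside 65.1% of all genes) and 14 rose and 16 fell in HD-homo (71.4%, beside 58.6%). The medians were -0.01 and -0.00. Plcg1, the phospholipase recruited to both receptors, rose in HD-het (log2 fold change 0.92, edgeR adjusted p = 1.44e-06) and in HD-homo (0.73, adjusted p = 8.83e-06). In HD-homo the adaptor Grb10 rose from 328.9 ± 20.9 to 899.8 ± 48.1 CPM, and the transcription factor Stat5a rose by 1.54 on the log2 scale. The guanine nucleotide exchange factor Vav3 fell from 4.93 ± 0.342 to 0.537 ± 0.155 CPM in HD-homo, and the docking protein Gab2 fell from 23.6 ± 0.538 to 5.67 ± 1.12 CPM. The Ras exchange factor Sos2 also fell in HD-homo (log2 fold change -1.31, edgeR adjusted p = 2.16e-07).

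Of 29 negative regulators, 27 were tested: 6 rose and 10 fell in HD-het (59.3% called, beside 65.1% of all genes), and 6 rose and 12 fell in HD-homo (66.7%, beside 58.6%). The medians were -0.09 and -0.07. Slc9a3r1, the PDZ scaffold NHERF1, which binds PDGF receptors, fell in both lines, from 113.7 ± 7.42 CPM to 32.8 ± 3.73 in HD-het and 21.0 ± 4.74 in HD-homo. Its relative Slc9a3r2 rose in HD-homo (log2 fold change 1.35, edgeR adjusted p = 2.03e-06). Spry1, a feedback inhibitor of Ras signalling, rose in HD-het and fell in HD-homo (1.21 and -1.96, edgeR adjusted p = 4.43e-05 and 3.42e-06), and Spry4 fell in HD-homo by 1.91 on the log2 scale. The phosphatase gene Dusp1 rose in both lines (1.95 and 1.05). Cblb, a ubiquitin ligase for activated receptors, rose in HD-homo from 24.1 ± 3.37 to 56.0 ± 10.6 CPM.

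The immediate-early list, genes that growth factors induce quickly, held 24 genes, all tested: 10 rose and 5 fell in HD-het (62.5% called, beside 65.1% of all genes), and 6 rose and 6 fell in HD-homo (50%, beside 58.6%). The medians were 0.01 and 0.04. Egr1 rose from 41.8 ± 1.41 CPM to 147.5 ± 34.1 in HD-het and 84.2 ± 22.4 in HD-homo, and Egr2 rose in both lines (log2 fold changes 1.95 and 1.56, edgeR adjusted p = 6.64e-05 and 0.000418). Egr3, by contrast, fell in HD-homo (-0.82, edgeR adjusted p = 0.022) and was not called in HD-het (-0.41, adjusted p = 0.196). Fosl1 and Myc fell in HD-het (-0.89 and -0.85), and Jun fell in HD-homo (-0.78). Among 15 factors known to bind promoters of the family, 13 were tested, with 6 risen and 3 fallen in HD-het (69.2%, beside 65.1%) and 4 risen and 1 fallen in HD-homo (38.5%, beside 58.6%). The medians were 0.21 and 0.08. Gli2, a Hedgehog effector, was the one that fell in HD-homo, from 16.8 ± 0.813 to 1.29 ± 0.235 CPM, and it rose in HD-het (log2 fold change 0.63, edgeR adjusted p = 0.000114). Klf5 rose in HD-homo by 0.76 and Cebpd in HD-het by 1.42 on the log2 scale. Egr1 is on both lists.

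The related receptors and their ligands, 14 tested of 15, held 5 risen and 3 fallen genes in HD-het (57.1% called, beside 65.1% of all genes) and 7 risen and 4 fallen in HD-homo (78.6%, beside 58.6%), with medians of 0.06 and 0.40. Flt1, a VEGF receptor, fell in HD-homo from 151.2 ± 3.08 to 12.4 ± 2.99 CPM, and Flt4, the VEGF-C receptor, fell by 2.13 on the log2 scale. The ligand genes of Flt4, Vegfc and Vegfd, rose in HD-homo (log2 fold changes 1.97 and 3.69, edgeR adjusted p = 1.13e-08 and 4.27e-09), and Vegfb, a ligand gene of Flt1, fell (-0.67, adjusted p = 0.000188). Kitl and Il34, which encode ligands of the KIT and CSF1 receptors, fell in HD-het (-1.82 and -2.55) and rose in HD-homo (1.86 and 1.96). Il34 was low, at 0.942 ± 0.245 CPM in control, 0.156 ± 0.0679 in HD-het (3 to 8 counts per library) and 3.66 ± 0.0551 in HD-homo. Kitl varied widely between the HD-homo libraries (88.6 ± 36.1 CPM). The receptor Csf1r rose in HD-homo from 0.544 ± 0.128 to 2.04 ± 0.368 CPM, Kdr rose in HD-het but stayed under 1 CPM on average, and Pgf rose in HD-het from 0.455 ± 0.217 to 2.88 ± 0.446 CPM.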

How the data were processed

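Poly(A) RNA of 9 libraries was sequenced from strand-marking preparations. The deposited table holds raw counts per gene as the authors made them, whole numbers. The submitters' processing notes name cutadapt, Bowtie 1.1.2, RSEM 1.3.0 and DESeq2, and the builds GRCm38.p5 and mm10, without their roles, so the counts may be rounded estimates, and whether counting used strand is not given in the sources used here. Lines were taken from the labels. Counts were fitted over all 9 libraries with edgeR 4.0.16 in R 4.3.3 (filterByExpr with a minimum count of 10, TMM, quasi-likelihood test, 1 mean per line), and p-values were Benjamini-Hochberg adjusted over 13508 tested genes. DESeq2 1.42.0, other scalings, no filter, other sample sets, the replicate block and single left-out libraries were tried as alternatives. On simulated data 8.90% of the calls were false, above the threshold of 0.05. Only 200 of 13322 genes were changed there, far fewer than were called here, so that share may not carry over. The members and lists were chosen with earlier results of these data known. From each list the text takes up to 3 genes risen and 3 fallen most in HD-homo, and up to 2 each in HD-het, among genes that were called, with no overlap between libraries and at least 1 CPM in the higher line. Kit, Kdr, Csf1r, Nrp1, Plat, Plau, Cspg4, Sparc and Furin are always given. A gene that this rule takes is not reported here. The marker genes named come from the marker lists and were picked after their values were seen. Profile distances used a pseudocount of 0.5. Transcript lengths and positions came from GENCODE release 21 for mouse, and 96.6% of tested genes matched a RefSeq chromosome. The 26 symbols turned into dates in the table were kept as they stand.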

Additional observations from a re-analysis of the deposited data

Results flagged for a closer look

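Pdgfrl and Pdgfd stood out because HD-het and HD-homo lay on opposite sides of control, in every library. The log2 fold change against control of Pdgfrl was 0.50 in HD-het and -2.45 in HD-homo. That of Pdgfd was 0.41 in HD-het, and the fitted value in HD-homo was -7.32, which rests on libraries of 0 or 1 count and is not a bound. Comparisons with HD-homo, and so the opposite directions, were not tested for these genes, since the family was chosen with HD-homo in view. Both comparisons share the control libraries. The call of Pdgfd between HD-het and control is fragile, as described above.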

How the results depend on the processing

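The log2 fold changes of all 7 members kept their direction in the 3 comparisons under 17 alternatives. The number of members called between HD-het and control was 3, was 5 without HD-het replicate 3, where Pdgfra and Pdgfb were added, and ranged from 2 to 5 over the fits that left out 1 library. The cause was not tested. It was 2 with DESeq2. Log2 fold changes that changed sign when 1 library was left out all belonged to differences that were not called: Itgb3 (-0.344 to 0.0748), Fosl1 (-0.00583 to 0.134), Sp1 (-0.0209 to 0.0615) and Nfyb (-0.0566 to 0.00932) in HD-homo against control, and Vav3 (-0.102 to 0.106), Slc9a3r2 (-0.114 to 0.0489) and Klf4 (-0.0381 to 0.123) in HD-het against control. With a prior count of 2, the fitted log2 fold change of Pdgfd in HD-homo against control moved to -5.53.

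The replicate numbers were not taken to pair the libraries: the correlation of same-numbered deviations ran from 0.068 to 0.245 for HD-het and control, from 0.023 to 0.040 for HD-homo and control and from 0.032 to 0.202 for HD-homo and HD-het. As a hint from the data, 5, 6 and 4 of 6 libraries correlated best with their own number in these comparisons. With the replicate block, 4 members were called between HD-het and control, Pdgfb among them (log2 fold change 0.36, edgeR adjusted p = 0.0459), and 9160 genes were called in place of 8797. Nrp1 was called in HD-homo against control with the block (log2 fold change 0.21, edgeR adjusted p = 0.0422). Depth limits Pdgfd in HD-homo, where 3 counts are the smallest level that could be told from none.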
